A study of Mus musculus with 3 samples.

Results

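C1q-positive kidney macrophages were studied in single-cell libraries of whole mouse kidney. The cells were chosen by measured values. A barcode, here called a cell, entered if it had at least 200 genes, at most 50% mitochondrial UMIs (unique molecular identifiers, 1 per captured RNA molecule), at least 3 UMIs of C1qa, C1qb and C1qc together and no UMI of the T cell genes Cd3e and Cd3g or the B cell gene Cd79a. This gave 347 cells out of 51795 that passed the gene and mitochondrial limits and 60420 deposited. All mice were male, were 28 weeks old, and had eaten their diet from 8 weeks of age for 20 weeks. The db/m control group ate a fructose-free diet, as did the db/db control group, and the db/db fructose group ate a diet with 60% fructose. The db/db mouse carries 2 mutant copies of the leptin receptor gene and becomes obese and diabetic, whereas the db/m mouse keeps a normal copy and stays lean. Each group was 1 library, and the number of mice behind it is not given in the sources used here. The 42, 175 and 130 C1q-positive cells of the db/m control, the db/db control and the db/db fructose library are therefore not replicates. No difference between groups could be tested, and every interval below is a 95% interval for counting error only.

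C1q is the recognition part of the classical complement pathway and is built from the chains encoded by C1qa, C1qb and C1qc. Tissue macrophages are its main source in the body, and in the mouse kidney the resident macrophages carry it together with Csf1r, the receptor for the growth factors that keep macrophages alive. Kidney macrophages take up debris and immune complexes, break them down in lysosomes, present peptides on MHC class II, and respond to interferon.

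The C1q genes lie side by side on chromosome 4 of the mm10 build, all on the minus strand, within 18.7 kb (GENCODE M21): C1qb at chr4:136880129-136886187, C1qc at chr4:136889804-136893065 and C1qa at chr4:136895917-136898803. The 250 bases before the start of 4 genes are printed, from RefSeq on GRCm38.p6 and read on each gene's own strand. C1qb stands for the genes that define the cells, Isg15 and Bst2 for the interferon response genes that differed between the libraries, and Ms4a7 for the macrophage identity genes. These 4 were picked for printing after their values had been seen. The windows are chr4:136886201-136886450 (C1qb), chr4:156200819-156201068 (Isg15), chr8:71537473-71537722 (Bst2) and chr19:11336147-11336396 (Ms4a7).
C1qb: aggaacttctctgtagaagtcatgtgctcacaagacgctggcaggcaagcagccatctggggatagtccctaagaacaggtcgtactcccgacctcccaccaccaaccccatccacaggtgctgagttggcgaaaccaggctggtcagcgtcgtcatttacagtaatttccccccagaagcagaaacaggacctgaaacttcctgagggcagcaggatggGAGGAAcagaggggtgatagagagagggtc
Isg15: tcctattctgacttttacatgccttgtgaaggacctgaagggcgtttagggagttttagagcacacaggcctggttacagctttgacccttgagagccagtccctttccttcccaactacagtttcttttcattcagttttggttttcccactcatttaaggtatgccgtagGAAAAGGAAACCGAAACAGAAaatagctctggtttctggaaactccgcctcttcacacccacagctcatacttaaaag
Bst2: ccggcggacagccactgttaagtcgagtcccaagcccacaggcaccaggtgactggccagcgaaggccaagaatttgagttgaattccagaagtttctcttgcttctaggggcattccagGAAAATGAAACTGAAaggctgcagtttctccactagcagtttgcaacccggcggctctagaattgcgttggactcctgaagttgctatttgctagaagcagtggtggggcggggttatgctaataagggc
Ms4a7: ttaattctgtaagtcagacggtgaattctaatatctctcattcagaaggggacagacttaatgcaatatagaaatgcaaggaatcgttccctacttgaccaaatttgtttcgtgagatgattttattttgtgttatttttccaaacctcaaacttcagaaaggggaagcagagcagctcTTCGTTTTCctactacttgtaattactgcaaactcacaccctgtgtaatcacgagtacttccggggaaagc
Capitals mark matches, on either strand, to GAGGAA, the core recognised by the macrophage factor PU.1, in C1qb, and to GAAANNGAA, the core of interferon-stimulated response elements, in the other genes. The C1qb match begins 30 bases before the start. Isg15 holds 3 overlapping matches at 78, 72 and 66 bases before the start, Bst2 holds 2 overlapping matches at 130 and 124, and Ms4a7 holds 1, on the reverse strand, at 71. GAAANNGAA was present in 7.13% of all 32851 promoter windows of this length, in 9 of 16 windows of the interferon response list and in 3 of 12 of the MHC class I list. The macrophage identity list, to which Ms4a7 belongs, had it in 4 of 13 windows, and the lysosome list in 1 of 22. GAGGAA was present in 23.3% of all windows, in 5 of 13 of the macrophage identity list and in 7 of 22 of the lysosome list. A match describes the letters only. C1qa is not in the table used.

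The macrophage label was checked against Csf1r and the myeloid genes Tyrobp and Adgre1, which the choice had not used. A Csf1r UMI was found in 34 of 42 db/m control cells (81.0%), 121 of 175 db/db control cells (69.1%) and 113 of 130 db/db fructose cells (86.9%). In proximal tubule cells of the same libraries, other kept cells with at least 10 UMIs of proximal tubule markers, the shares were 1.12%, 0.83% and 1.09%, at median depths of 1671, 1641 and 1566 UMIs against 3223, 2575 and 2869.5 in the C1q-positive cells. In myeloid cells without a C1q UMI, defined below and chosen in part by Csf1r, the shares were 43.8%, 45.2% and 58.6%, so Csf1r does not set macrophages apart from these. Csf1r was detected more often in cells with more C1q UMIs. Among cells with 30 or more C1q UMIs it was found in 27 of 28, 66 of 75 and 76 of 80 cells, and among those with 3 to 9 in 3 of 7, 14 of 43 and 10 of 18. Tyrobp was found in 28 of 28, 73 of 75 and 79 of 80 cells with 30 or more, and in 1 of 7, 19 of 43 and 13 of 18 with 3 to 9. For Adgre1 the counts were 23 of 28, 29 of 75 and 33 of 80, and 0 of 7, 3 of 43 and 2 of 18. The label is therefore weaker for the cells with 3 to 9 C1q UMIs. The cells with 30 or more were also deeper, with medians of 3519.5, 3626 and 3235 UMIs against 1431, 1448 and 1034.5. The part of depth in these shares was not tested. The db/db control library held the most cells near the threshold: 17 with exactly 3 C1q UMIs and 18 just outside it with 2, against 3 and 2 in the db/m control and 2 and 19 in the db/db fructose library. The median cell had 46.5, 24 and 36 C1q UMIs in the db/m control, db/db control and db/db fructose library. All 3 chains were seen in 39, 150 and 117 cells.

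**Figure D1:**
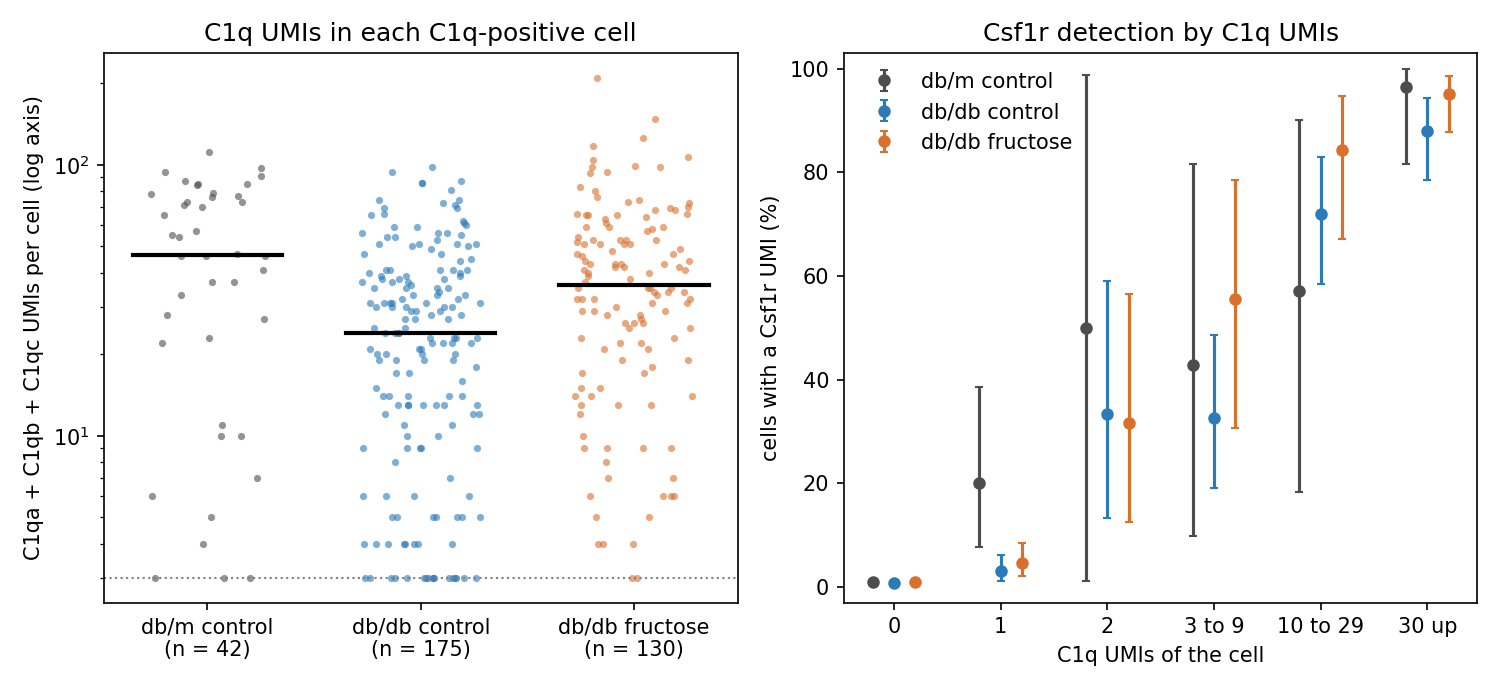
The left plot gives the C1qa, C1qb and C1qc UMIs of every C1q-positive cell on a log axis, with the library median as a black line and the threshold of 3 as a dotted line. The right plot gives the percentage of cells with a Csf1r UMI (95% Clopper-Pearson interval) by the C1q UMIs of the cell, for all kept cells free of the excluded T and B cell genes, and shows shares near 1% with no C1q UMI and 27 of 28, 66 of 75 and 76 of 80 with 30 or more.

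The genes that stood highest over all other kept cells, among those with at least 100 CPM (counts scaled to a total of 1000000 UMIs of the C1q-positive cells of a library) in every library, were those of antigen-presenting myeloid cells. These levels describe the chosen cells and were not tested. H2-Aa, a chain of MHC class II, stood at 16114, 11397 and 12019 CPM in the db/m control, db/db control and db/db fructose cells, and Cd74, the invariant chain, at 40450, 31660 and 37726 CPM. The chemokine genes Ccl4 (3529, 2140 and 2525 CPM) and Ccl3 (1587, 906 and 1021 CPM) also belonged to this group. So did Cx3cr1, the fractalkine receptor of resident macrophages, at 193, 211 and 233 CPM, and Slamf9 at 429, 273 and 337 CPM. The others were Adgre1, which encodes F4/80, Ms4a7, Lilra5, Cd72, H2-Eb1, Scimp, Cxcl14, Ly86 and Aif1. Some genes of the scavenger type of resident macrophage were rarely detected, and others of that list are given below. Cd163 was detected in 1, 2 and 1 cells, Folr2 in 0, 1 and 0, and Lyve1 and Timd4 in none, where 0 cells, taken as a limit of 3 counts, allow a share with a UMI of up to 7.14%, 1.71% and 2.31%.

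Markers of other cell types were present and differed between the libraries. Proximal tubule markers summed to 8913, 7792 and 6833 CPM in the C1q-positive cells of the db/m control, the db/db control and the db/db fructose library, or 35.6%, 43.0% and 30.7% of their level in the other kept cells, with all 14 detected in each. Thick ascending limb markers summed to 691, 1669 and 1102 CPM and distal tubule and collecting duct markers to 336, 1588 and 802 CPM. Endothelial markers gave 3, 67 and 79 UMIs, of which 33 in the db/db control and 48 in the db/db fructose library lay in 1 cell each. Podocyte markers gave 1, 72 and 19 UMIs, with 68 of the 72 in 1 db/db control cell. The T cell genes Cd3d, Trac and Trbc2, the B cell genes Ms4a1 and Igkc and the neutrophil genes Cxcr2, Ly6g and S100a9 were at 0 in every library. The neutrophil list gave 6, 7 and 3 UMIs, or 37.3, 13.2 and 6.93 CPM against 9.22, 31.6 and 99.3 CPM in other kept cells. The T cell list gave 2, 2 and 4 UMIs. That was 12.4, 3.77 and 9.24 CPM, against 11.7, 5.20 and 8.56 CPM in the other kept cells. The B cell list still gave 25, 80 and 58 UMIs in 16, 57 and 42 cells, or 156, 151 and 134 CPM against 34.7, 2.70 and 4.58 CPM in the other kept cells. These came from Ighm, the heavy chain of IgM (19, 67 and 45 UMIs), and Cd79b, a part of the B cell receptor (6, 13 and 13 UMIs), and their part in the results was not tested. The median mitochondrial share was 6.90%, 15.1% and 7.42%, against 15.5%, 25.9% and 10.9% in the other kept cells. Doublet scoring, which marks a preset share of each library's barcodes with the highest scores, marked 0, 16 and 15 of the cells. In the db/db control, removing the marked barcodes left 159 of 175 C1q-positive cells and 16227 of 21218 kept cells, so the C1q-positive cells were marked less often there. The part of these differences in the results below was not tested. Any pair of libraries shared at most 780 of the deposited barcodes, and no barcode was C1q-positive in both.

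The share of C1q-positive cells was higher in both db/db libraries than in the db/m control. They were 42 of 11256 kept cells (0.373%, 0.269% to 0.504%) in the db/m control, 175 of 21218 (0.825%, 0.707% to 0.956%) in the db/db control and 130 of 19321 (0.673%, 0.562% to 0.798%) in the db/db fructose library. The db/db control share was 2.21 times the db/m control share (1.57 to 3.17), and 2.0 times (1.37 to 2.99) when only cells with at least 10 C1q UMIs were counted. The db/db fructose share was 0.816 times the db/db control share (0.645 to 1.03), an interval that includes 1. Myeloid cells without a C1q UMI (at least 3 UMIs of Tyrobp, Fcer1g, Ctss, Csf1r, Lst1 and Aif1, and neither neutrophils nor natural killer cells) numbered 32, 84 and 87. Of the C1q-positive and these myeloid cells together, the C1q-positive made up 56.8% (44.7% to 68.2%), 67.6% (61.5% to 73.2%) and 59.9% (53.1% to 66.5%), and these intervals overlap. Digestion, dead cell removal and capture can set such shares, and these steps cannot be told apart from the groups.

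The summed UMIs of the C1q-positive cells were 160667, 530928 and 432910. A gene was measured in a comparison with at least 30 UMIs over its 2 libraries, and called at a ratio of at least 1.5-fold, a threshold of size and not a test. A gene low in 1 of the 2 libraries can reach the limit of 30 UMIs only through the library where it is high. Calls of such genes rest in part on that limit. Of 3146 genes measured between the db/db control and the db/m control, 16.7% were called higher in the db/db control and 17.9% lower, with a median log2 ratio of -0.09. Of 4448 measured between db/db fructose and db/db control, 18.0% were called higher in db/db fructose and 7.46% lower, with a median of 0.19. In the second comparison, scaling by size factors in place of the total brought that median to 0 and turned the split of 801 higher and 332 lower into 428 and 536. Both comparisons use the db/db control library, so a level that is low there is lower in the first and higher in the second. In every library the 13 mitochondrial genome transcripts were abundant, summing to 91923, 160521 and 77485 CPM. All 13 were higher in the db/db control than in the db/m control, and all 13 were lower in db/db fructose than in the db/db control. The other kept cells had the same order (182988, 258165 and 135186 CPM).

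**Figure D2:**
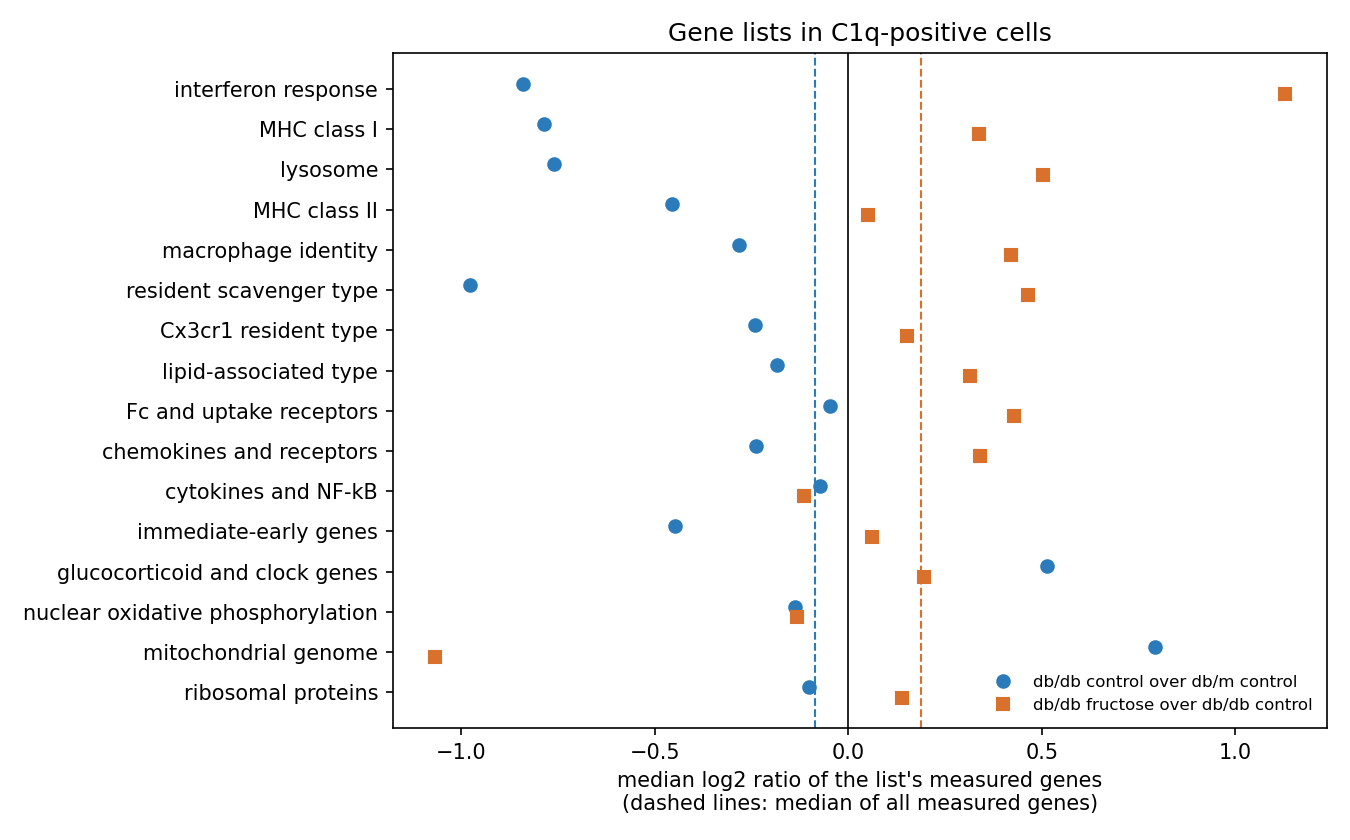
Median log2 ratio of the measured genes of 16 gene lists in C1q-positive cells, for db/db control over db/m control (circles) and db/db fructose over db/db control (squares), with dashed lines at the medians of all measured genes (-0.09 and 0.19). The interferon list stands at -0.84 and 1.13 and the mitochondrial genome at 0.79 and -1.07, and both comparisons share the db/db control library.

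Most macrophage identity genes were under the threshold, and Ms4a7 and Adgre1 were lower in the db/db control. Of 17 measured, 4 were lower than in the db/m control (23.5%), beside 17.9% of all genes, and 0 higher, with a median of -0.28. The count was 7 without the deepest cell of each library and 2 with the top cell of each gene left out. Ms4a7, a membrane protein of macrophages at chr19:11321039-11336146, gave 68, 60 and 89 UMIs in 22 of 42, 36 of 175 and 38 of 130 cells of the db/m control, the db/db control and the db/db fructose library. Its level was 423, 113 and 206 CPM, against under 1 CPM in the other kept cells of each library. The db/m control stood above both db/db libraries, with counting intervals apart from each. The log2 ratio of db/db control over db/m control was -1.91 (-2.43 to -1.38), and that of db/db fructose over db/db control 0.86 (0.37 to 1.36). Adgre1 followed the same order, with 274, 115 and 169 CPM and 24, 47 and 40 cells with a UMI. Its ratio in the db/db control over the db/m control was -1.25 (-1.84 to -0.66). The order held among the cells with 30 or more C1q UMIs, where an Adgre1 UMI was found in 23 of 28, 29 of 75 and 33 of 80. Cells thinned to 1000 UMIs showed Ms4a7 in 34.1%, 9.88% and 14.8% and Adgre1 in 19.5%, 12.2% and 17.2%. The proximal tubule share with a UMI of these genes was under 0.1% in every library.

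Csf1r itself stood at 809, 591 and 889 CPM, with a ratio of -0.45 (db/db control over db/m control) and 0.59 (db/db fructose over db/db control), the second just past 1.5-fold and 0.40 under size factors. The C1q chains, on which the cells were chosen, had ratios of -0.47 (C1qa), -0.44 (C1qb) and -0.47 (C1qc) in the first comparison and 0.48, 0.45 and 0.42 in the second. Lyz2, the lysozyme gene, was lower in the db/db control (-1.08), but 495 of its 1134 db/m control UMIs came from 1 cell, and with the top cell of each library left out the ratio was -0.38. Between db/db fructose and db/db control, 5 of 18 identity genes were higher (27.8%), beside 18.0% of all genes, and 0 lower, with a median of 0.42. They were Ms4a7, Csf1r, Lgmn (a lysosomal protease), Fcgr1 (a high-affinity receptor for IgG) and Mertk (a receptor for dying cells). Under size factors 3 of the 18 were higher and the median was 0.23. With at least 10 C1q UMIs, or with the top cells left out, 3 were also higher.

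Genes of the resident scavenger type showed the lowest list median of the first comparison, though not under every alternative choice of cells. Of 6 measured of 12, 4 were lower in the db/db control than in the db/m control, 1 was higher, and the median was -0.98, beside 17.9% and 16.7% of all genes. Without the cells of high tubule share 2 of 3 measured were lower, and the median of -0.72 was above that of the MHC class I list (-0.95). With the highest Scrublet scores removed it was -0.85, against -0.86 for the list of polarisation markers. Selenop, a selenium carrier, stood at 996, 448 and 531 CPM in the db/m control, db/db control and db/db fructose cells, and at 606, 131 and 146 CPM in the other kept cells, so the same order was seen outside the macrophages. Mrc1, the mannose receptor CD206, gave 27, 45 and 51 UMIs and was found in 17 of 42 (40.5%), 29 of 175 (16.6%) and 35 of 130 cells (26.9%), and in at most 1.08% of proximal tubule cells. The ratio of db/db control over db/m control was -0.99 (-1.71 to -0.24), and after thinning the shares were 24.4%, 9.88% and 13.1%. Pf4, a chemokine also made by platelets, was found in 9, 12 and 27 cells at 74.7, 37.7 and 129 CPM, with a ratio of 1.78 (1.02 to 2.59) for db/db fructose over db/db control. Stab1, a scavenger receptor, went the other way and was higher in the db/db control (1.23, 0.31 to 2.28; 68.5, 160 and 141 CPM). Other lectins used as markers of alternative activation were lower in the db/db control, Mgl2 with a log2 ratio of -1.37 (-2.32 to -0.40) and Clec10a with -1.34 (-2.47 to -0.17). In the polarisation list as a whole 4 of 6 measured genes were lower and 1 higher in the db/db control, and 0 of 7 were called in either direction between db/db fructose and db/db control.

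Several genes with low levels outside macrophages were called lower in the db/db control than in the db/m control. C3ar1, the receptor for the complement fragment C3a, gave 286, 111 and 132 CPM in 20, 42 and 37 cells and a ratio of -1.37 (-1.95 to -0.78) in db/db control cells over db/m control cells. Mmp13, a collagenase, gave 205, 33.9 and 39.3 CPM in 13, 12 and 11 cells, with a ratio of -2.60 (-3.51 to -1.73). Entpd1, an enzyme that degrades extracellular ATP, gave 156, 30.1 and 55.4 CPM (-2.37, -3.37 to -1.41). These 3 genes were highest in the db/m control. Between db/db fructose and db/db control the ratios were 0.24 for C3ar1, 0.21 for Mmp13 and 0.88 for Entpd1, the last past 1.5-fold, and all 3 intervals include 0. The 2 lowest ratios of the named genes, Fabp5 and Gpnmb of lipid-laden macrophages, came from a single db/m control cell: it held all 32 Gpnmb UMIs and 31 of the 34 Fabp5 UMIs of that library, with 85 C1q and 8 Csf1r UMIs.

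The summed level of lysosomal genes was lower in the db/db control than in either other library. Of 21 measured, 14 were lower than in the db/m control and 0 higher, with a median of -0.76, beside 17.9% and 16.7% of all genes. With the top cell of each gene left out 7 were lower and the median was -0.45. Of 22 measured between db/db fructose and db/db control, 8 were higher and 0 lower, with a median of 0.50, beside 18.0% and 7.46% of all genes, or 5 and 0 with a median of 0.32 under size factors. Ctsb, the protease cathepsin B, gave 1705, 782 and 1555 CPM, with ratios of -1.13 and 0.99. Grn, the granulin precursor that the lysosome needs, gave 517, 305 and 601 CPM (-0.76 and 0.98), and Lipa, the lysosomal acid lipase, 274, 107 and 192 CPM (-1.35 and 0.84). The list summed to 15205, 8930 and 13208 CPM in the C1q-positive cells and to 2899, 2588 and 3100 CPM in the other kept cells. Ctsd had the largest ratio of the list in the first comparison (-1.76), with 74 of its 110 db/m control UMIs in 1 cell, and with the top cells left out it was -0.27.

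MHC class I genes were mostly lower in the db/db control. Of 11 measured MHC class I genes, 7 were lower in the db/db control than in the db/m control and 0 higher, with a median of -0.79, beside 17.9% of all genes lower and 16.7% higher. H2-T23, which encodes the non-classical molecule Qa-1, gave 797, 279 and 395 CPM in 33, 92 and 85 cells, with a ratio of -1.51 (-1.87 to -1.16). The immunoproteasome subunit gene Psmb8 gave 442, 234 and 284 CPM (-0.92, -1.35 to -0.48), and H2-K1, a classical heavy chain, 1911, 1107 and 1469 CPM (-0.79). Between db/db fructose and db/db control only B2m, the light chain, was called among these 11 genes (0.62, 0.48 to 0.77; 1886, 1377 and 2123 CPM). Under size factors its ratio was 0.44, below 1.5-fold. The class I list summed to 929, 653 and 978 CPM in the other kept cells, an order that also has the db/db control lowest. Class II was by far the more abundant list, at 81554, 60121 and 66815 CPM against at most 402 CPM in the other kept cells. In the db/db control 2 of 10 measured class II genes were lower and 0 higher than in the db/m control (median -0.46), beside 17.9% and 16.7% of all genes. Without the deepest cell of each library 5 of the 10 were lower (median -0.59). Between db/db fructose and db/db control 1 was lower, Ciita, the activator of class II transcription (-0.73, -1.45 to -0.04), and 0 were higher (median 0.05).

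Interferon response genes had the list median farthest above that of all genes in db/db fructose over db/db control, though not under every alternative. Of 12 measured, 8 were higher and 1 was lower, with a median of 1.13, beside 18.0% and 7.46% of all genes. Under size factors they were 8 and 2, with a median of 0.94. Over all alternatives the interferon median lay between 0.93 and 1.23, and that of the cell cycle list between 0.70 and 1.45. Between db/db control and db/m control 6 of 9 measured interferon genes were lower and 0 higher, beside 17.9% and 16.7% of all genes, with a median of -0.84. The gene Ifi27l2a, an interferon-induced gene at chr12:103442167-103443680, gave 59, 61 and 242 UMIs in 17 of 42 (40.5%), 39 of 175 (22.3%) and 70 of 130 (53.8%) cells of the db/m control, the db/db control and the db/db fructose library. It stood at 367, 115 and 559 CPM. The db/db fructose library was highest and the db/db control lowest, with all 3 counting intervals apart. The ratio was -1.68 (-2.22 to -1.14) in the first comparison and 2.28 (1.87 to 2.71) in the second. After thinning the shares were 17.1%, 8.72% and 35.2%, and in proximal tubule cells a UMI was found in at most 0.845%.

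The other interferon genes named had lower counts, and most were lowest in the db/db control. Irf7, the transcription factor that amplifies the response, gave 16, 18 and 53 UMIs in 8, 12 and 25 cells, or 99.6, 33.9 and 122 CPM, with a ratio of 1.85 (1.06 to 2.71) for db/db fructose over db/db control. Bst2, or tetherin, which holds viruses at the cell surface, gave 280, 126 and 266 CPM, with ratios of -1.15 (-1.72 to -0.57) and 1.07 (0.63 to 1.53). Isg15, a ubiquitin-like modifier, gave 80.9, 45.2 and 113 CPM in 5, 15 and 22 cells, with a second ratio of 1.32 (0.59 to 2.09) and 14 of its 49 db/db fructose UMIs in 1 cell. The DNA sensor family members Ifi204 (9, 9 and 26 UMIs) and Ifi213 (9, 7 and 30 UMIs) had second ratios of 1.82 (0.69 to 3.10) and 2.39 (1.18 to 3.83). Both reached the limit of 30 UMIs only with the db/db fructose counts. Sp100, a nuclear body protein induced by interferon, gave 131, 37.7 and 118 CPM, lower in the db/db control (-1.79) and higher again in db/db fructose (1.64). Irf1 was highest in the db/db control and lower in db/db fructose (-1.11; 162, 230 and 106 CPM). Irf1 and Isg15 were named after their values had been seen. Cells with a UMI of at least 3 genes of the list after thinning numbered 8 of 41 (19.5%), 19 of 172 (11.05%) and 37 of 122 (30.3%), a minority in each library.

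The same order was seen outside the macrophages. The interferon list summed to 2627, 1554 and 3040 CPM in the C1q-positive cells and to 431, 344 and 616 CPM in the other kept cells. Ifi27l2a stood at 8.91, 2.12 and 14.3 CPM in the other kept cells and at 528, 128 and 627 CPM in the C1q-negative myeloid cells. In all 3 sets of cells the db/db control was lowest and db/db fructose highest. Leaving out the top cell of each gene in each library left 8 higher and 1 lower in the second comparison, with a median of 0.93, and 0 higher and 4 lower in the first, with a median of -0.46. Without the cells of high tubule share 1 of 7 was higher and 3 were lower in the first.

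**Figure D3:**
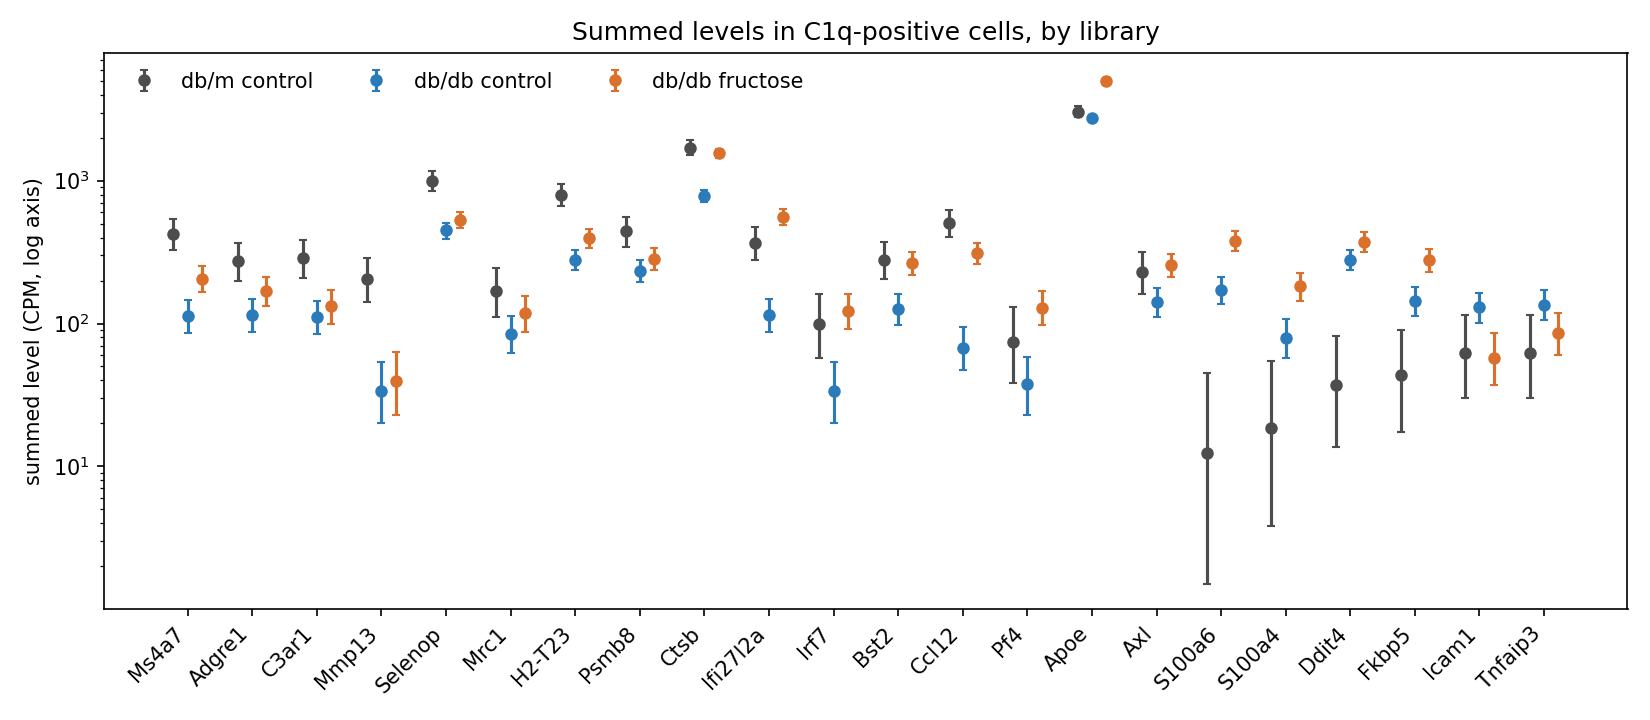
Summed level in C1q-positive cells (CPM, log axis) of 22 named genes in the 3 libraries, with exact Poisson 95% intervals for counting error. Ms4a7, Adgre1, C3ar1 and Mmp13 are highest in the db/m control, Ifi27l2a, Irf7, Bst2 and Ccl12 are lowest in the db/db control, and S100a6, S100a4, Ddit4 and Fkbp5 are lowest in the db/m control.

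Other genes were higher in the db/db control than in the db/m control. S100a6, a calcium-binding protein of monocytes and many epithelia, gave 2, 91 and 164 UMIs in 2, 34 and 23 cells, or 12.4, 171 and 379 CPM, with a ratio of 3.78 (1.89 to 6.85). S100a4, a related calcium-binding protein, gave 3, 42 and 79 UMIs in 1, 22 and 21 cells, with a ratio of 2.08 and, for db/db fructose over db/db control, 1.21. The S100a6 level in the other kept cells was 51.8, 77.7 and 159 CPM, and in the C1q-negative myeloid cells 588, 1210 and 1302 CPM, with the same order in each. Its share of cells with a UMI in proximal tubule cells was 2.89%, 4.90% and 5.46% against 4.76%, 19.4% and 17.7% in the C1q-positive cells. The db/m control value is therefore near the tubule share. Beyond S100a6 and S100a4 the monocyte list was sparse: Ccr2 was found in 16.7%, 10.9% and 14.6% of cells, and Ly6c2 in 0, 1 and 1 cells. The fructose Ly6c2 cell held all 63 of its UMIs and 18 of the 34 Plac8 UMIs of that library.

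Ddit4, a stress- and glucocorticoid-induced inhibitor of mTOR signalling, gave 6, 148 and 162 UMIs in 5 of 42 (11.9%), 70 of 175 (40%) and 51 of 130 (39.2%) cells. At 37.3, 279 and 374 CPM, both db/db libraries stood above the db/m control. The ratio of the first comparison was 2.90 (1.74 to 4.37). The level in the other kept cells had no such order (63.3, 48.9 and 60.9 CPM), nor did the share of proximal tubule cells with a UMI (8.01%, 6.50% and 7.14%). Fkbp5, a glucocorticoid-induced chaperone, gave 43.6, 143 and 277 CPM, with ratios of 1.72 (0.60 to 3.08) and 0.95 (0.53 to 1.39). Here the other kept cells had 79.6, 95.9 and 248 CPM and moved in the same order. Of the 9 measured glucocorticoid and clock genes, 3 were higher in the db/db control than in the db/m control and 0 lower (median 0.51), beside 16.7% and 17.9% of all genes, and 5 were higher under size factors. Some targets of NF-kB were higher in the db/db control and lower in db/db fructose. From the cytokine and NF-kB list these were Icam1, an adhesion molecule (62.2, 130 and 57.7 CPM, ratios 1.06 and -1.17), and Tnfaip3, which ends NF-kB signalling (62.2, 136 and 85.5 CPM, ratios 1.12 and -0.67). From the chemokine list came Cxcl1, a neutrophil chemokine (31.1, 96.1 and 32.3 CPM in 2, 13 and 7 cells, ratios 1.63 and -1.57). In that chemokine list 2 of 15 measured genes were higher in the db/db control than in the db/m control. Another 5 were lower, among them Ccl3, Ccl4 and Cxcl10, beside 16.7% higher and 17.9% lower of all genes. Within the cytokine and NF-kB list 3 of 11 measured genes (Icam1, Tnfaip3 and Nfkb1) were higher and 1 lower in the first comparison, beside the same shares. In the second 1 was higher and 2 lower, beside 18.0% and 7.46%. Il1b and Tnf of that list were called in neither. The median was -0.07 in the first comparison and changed sign under size factors (0.01). Without the cells of high tubule share 0 were higher and 4 lower in the second.

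Chemokine genes differed one by one. Ccl3 was lower in the db/db control than in the db/m control (-0.81, -1.03 to -0.58, and -0.42 with the top cells left out, under 1.5-fold), as was Ccl4 (-0.72, -0.87 to -0.57), and neither was called between the db/db libraries (0.17 and 0.24). Ccl12, a ligand of CCR2, gave 81, 36 and 135 UMIs in 8, 8 and 30 cells. In the db/m control 62 of the 81 UMIs came from 1 cell, and the first ratio went from -2.89 to -0.85 without the top cells, whereas the second was 2.20 (1.66 to 2.77) and 1.73 without them. Ccl2, the main monocyte attractant, gave 4, 4 and 48 UMIs in 3, 4 and 9 cells, with a ratio of 3.88 (2.43 to 5.81) for db/db fructose over db/db control. Wfdc17, which encodes a small secreted protein, gave 2, 3 and 31 UMIs in 2, 3 and 14 cells (3.66, 1.98 to 6.02). Of 15 chemokine and receptor genes, 5 were higher and 2 lower in db/db fructose than in the db/db control, beside 18.0% and 7.46% of all genes. Ccl2, among the 5, reached the limit of 30 UMIs only with the db/db fructose counts.

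**Figure D4:**
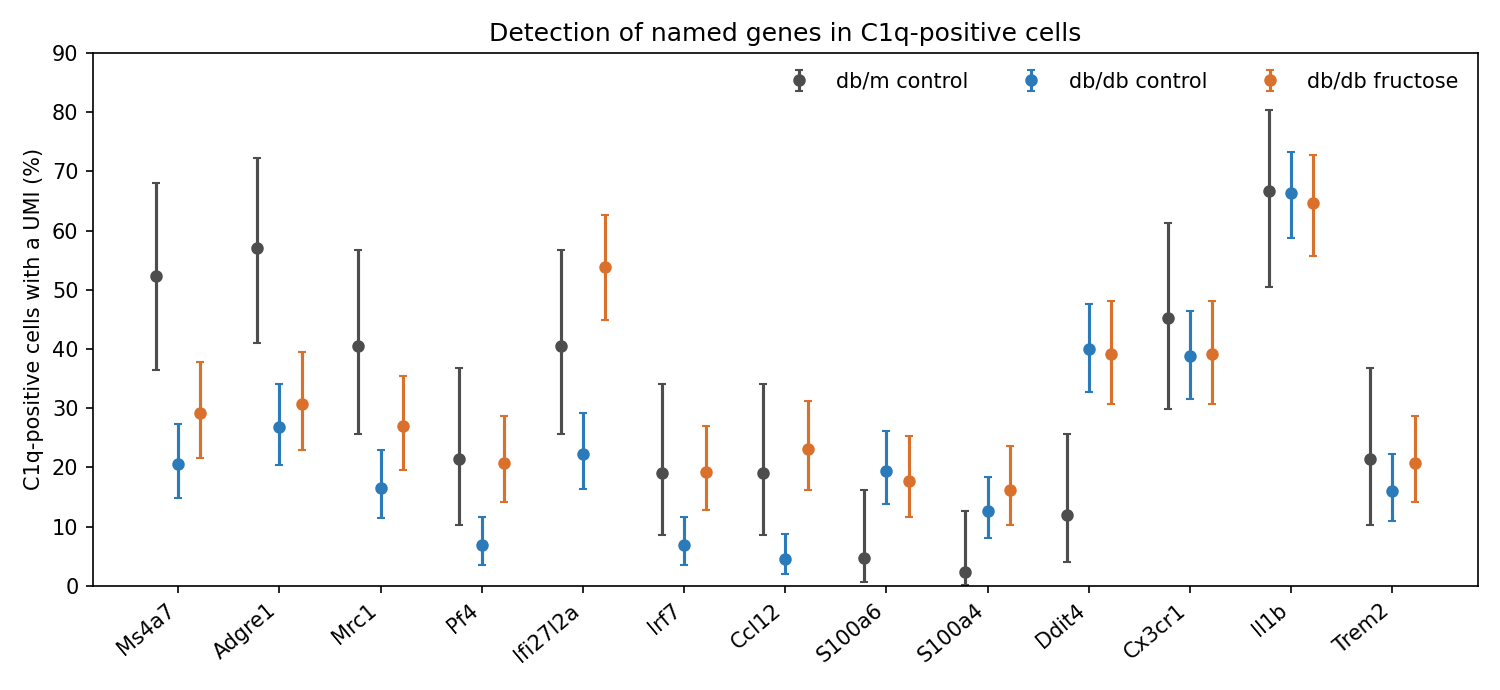
Percentage of C1q-positive cells with at least 1 UMI of 13 named genes in each library, with Clopper-Pearson 95% intervals and no thinning. Mrc1 lies at 40.5%, 16.6% and 26.9% and Ifi27l2a at 40.5%, 22.3% and 53.8% in the db/m control, db/db control and db/db fructose library, whereas Il1b lies between 64.6% and 66.7% in all 3.

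Apoe, Axl, Msr1 and Fcgr1 were higher in db/db fructose than in the db/db control. Apoe, the lipoprotein that carries cholesterol out of macrophages, gave 3044, 2761 and 4999 CPM in 28, 128 and 110 cells, with a ratio of -0.14 in the first comparison and 0.86 (0.76 to 0.95) in the second. Of 11 measured lipid and cholesterol genes 5 were higher and 1 lower in db/db fructose, beside 18.0% and 7.46% of all genes, with a median of 0.49. Without the deepest cell of each library they were 3 and 2 with a median of 0.02, and without the dividing cells 2 and 2. They were 2 and 1 under size factors or with the top cell of each gene left out. Of 11 Fc and uptake receptors 4 were higher and 0 lower, beside the same shares of all genes, or 2 of 10 higher with at least 10 C1q UMIs and 2 of 9 without the cells of high tubule share. Axl, a receptor for dying cells, gave 230, 141 and 256 CPM (0.86, 0.42 to 1.30), Msr1, a scavenger receptor, 49.8, 18.8 and 46.2 CPM (1.29, 0.13 to 2.55), and Fcgr1 56.0, 58.4 and 104 CPM (0.83, 0.14 to 1.54). Of the genes of fructose uptake and breakdown, 0 of 8 measured were higher in db/db fructose and 2 were lower, Mlxipl (-0.95) and Sord (-0.62), each with a level in the other kept cells above that in the C1q-positive cells. The Sord ratio was 0.026 without the cells of high tubule share. Spp1, often used for injury-associated macrophages, was found in 31.0%, 59.4% and 68.5% of C1q-positive cells and in 38.6%, 68.1% and 76.4% of proximal tubule cells. The part of tubule RNA in its detection was not tested, and its shares are not read as a macrophage state here.

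Dividing cells were seen in the db/db libraries. Mki67 had a UMI in 0 of 42, 5 of 175 and 9 of 130 cells, and Top2a in 0, 3 and 9, against at most 1.15% and 0.704% of proximal tubule cells. With 0 cells, the same limit of 3 counts allows a db/m control share with a UMI of up to 7.14%, which covers the shares of the other libraries (2.86% and 6.92% for Mki67). All 6 measured of 13 cell cycle genes were higher in db/db fructose than in the db/db control, with a median of 1.01, beside 18.0% of all genes. The deepest db/db fructose cell held 24 Mki67 UMIs. With the top cell of each gene left out the ratio of Top2a was 0.26, under 1.5-fold. Those of Mki67 (0.94), Tubb5 (0.76) and Stmn1 (0.75) stayed past it. Leaving out the dividing cells left 3 measured genes, of which 2 were higher.

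Several genes that are central to macrophage function were under the 1.5-fold threshold in both comparisons. Il1b, the inflammatory cytokine, was found in 66.7%, 66.3% and 64.6% of cells and stood at 1712, 1543 and 1421 CPM, with ratios of -0.15 and -0.12. For Tnf the ratios were 0.11 (-0.57 to 0.84) and 0.00 (-0.48 to 0.49). Trem2, a lipid receptor, had -0.11 (-0.97 to 0.84) and -0.06 (-0.73 to 0.60). Cx3cr1 had 0.13 (-0.46 to 0.75) and 0.15 (-0.26 to 0.55). The intervals of Tnf, Trem2 and Cx3cr1 reach past 1.5-fold (0.58 on the log2 scale) in the first comparison. The Trem2 interval also does so in the second. A difference of that size is therefore not excluded for these 3 genes with 42 db/m control cells, nor for Trem2 between the db/db libraries. Of 80 measured ribosomal protein genes, 1 was higher and 2 lower in the db/db control, and 1 higher and 0 lower in db/db fructose. Of all genes, 16.7% were higher and 17.9% lower in the first comparison, and 18.0% and 7.46% in the second. Of 22 nuclear genes of oxidative phosphorylation, 1 was higher and 3 lower (13.6%) in the first comparison. In the second 0 were higher and 1 lower (4.55%). The shares called lower lie not far below the 17.9% and 7.46% of all genes. Those called higher, 4.55% in the first comparison and 0 of 22 in the second, lie well below the 16.7% and 18.0% of all genes. The transcripts of the mitochondrial genome were called throughout.

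The cells also varied within each library. Cells with a UMI of Mrc1 were compared with those without, using genes with at least 30 UMIs, and the genes below were chosen after their values had been seen. In both db/db libraries the Mrc1-positive cells had more Vcam1, an adhesion molecule (log2 ratio of Mrc1-positive over Mrc1-negative 2.08 in db/db control and 2.30 in db/db fructose), and more Cd93, a surface receptor (1.07 and 1.72). In the db/m control both were lower in the Mrc1-positive cells (-0.88 and -1.29, from 4 and 3 UMIs in those cells). The Mrc1-positive cells had less Tap2, a peptide transporter of MHC class I loading, in all 3 libraries (-1.05, -0.85 and -1.09). These rest on few Tap2 UMIs, with 4, 4 and 6 in the Mrc1-positive cells. The median depth was 3070, 2948 and 3069 UMIs in Mrc1-positive and 3230, 2496 and 2682 in Mrc1-negative cells. A few deep cells weighed on the db/m control sums. Its deepest cell held 17853 UMIs, 11.1% of the total, with 27 C1q UMIs, 207 of the 432 Gpx1 UMIs and 0 of Csf1r, and the cell with the Gpnmb and Fabp5 UMIs held 8.02%.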

How the data were processed

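Whole kidneys were digested and captured as single cells, with 1 library per group and 3 libraries in all. The authors deposited UMI counts for 32285 genes in every barcode, which came from Cell Ranger 6.0.0 and the mm10 build per the submitters' processing notes. Here, counts of the C1q-positive cells were summed per library and expressed as CPM with exact Poisson intervals, shares with Clopper-Pearson intervals, and ratios of sums with exact conditional binomial intervals, all at 95% (Python 3.11.15, scipy 1.17.1, numpy 2.4.6, pandas 2.3.3). Depth was 160667, 530928 and 432910 UMIs in the db/m control, db/db control and db/db fructose cells, so the db/m control limits the precision. The intervals cover counting error only. Sums of 0 were replaced by a floor of 3 counts per library. Doublets were scored with Scrublet (scanpy 1.11.5) at an expected 0.8% per 1000 barcodes and kept, their removal being an alternative. The ratio script was tested on simulated data.

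The members and gene lists were chosen with earlier results of these data known. Named genes were, in each comparison, the 8 highest and 8 lowest ratios among measured genes with a CPM at least 2 times that of the other kept cells of the library where they are higher, leaving out mitochondrial, ribosomal protein, haemoglobin, immunoglobulin and unnamed genes. To these came up to 3 members of each of 28 gene lists with the largest ratios, the 15 genes highest over the other kept cells with at least 100 CPM in every library, a set of state genes, the C1q genes and Csf1r. Genes named outside this rule stand in the text as list members or as chosen after their values were seen. Alternatives covered the C1q, gene, mitochondrial and UMI limits, the scaling, doublets, tubule RNA and single cells. A few of them, at least 10 C1q UMIs and leaving out the top cell of each gene, the dividing cells or the deepest cell, were chosen after seeing the data. Promoter sequences came from RefSeq and gene positions from GENCODE M21.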

Additional observations from a re-analysis of the deposited data

How the results depend on the processing

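With 1 library per group, no spread between replicates was measured, and a ratio of a gene with few UMIs rests on few cells. No paired analysis was possible because each group has 1 library. Of 150 called ratios of named genes, 128 of the 148 that could be computed kept their side and stayed past 1.5-fold with cells above the median proximal tubule share removed, 135 of 150 under size factors and 101 of 145 with the top cell of each gene left out. The db/db control share of C1q-positive cells was 0.707% at 5 or more C1q UMIs, 0.622% at 10 or more, 1.18% at most 30% mitochondrial UMIs, 0.973% at 500 or more genes and 0.980% without the highest Scrublet scores. Removing C1q-positive cells above the median tubule share of 0.672% left 21 of 11256, 82 of 21218 and 71 of 19321 kept cells (0.187%, 0.386% and 0.367%) in the db/m control, db/db control and db/db fructose library. This cut drops about 50% of the C1q-positive cells by its definition and leaves the kept cells unchanged. The fall in these shares is therefore set by the cut.

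Counts of called genes are given in the order higher and lower in db/db control over db/m control, then higher and lower in db/db fructose over db/db control. They were 61, 115, 155 and 56 at 100 UMIs, 1776, 1608, 1921 and 1156 at 10 UMIs, and 246, 172, 200 and 106 at 2-fold. Removing cells above the median tubule share gave 237, 264 and 205 for the first, second and last count. Size factors gave 428 and 536 for the last pair, and a total without mitochondrial genes 508 for the third. Subtracting free RNA gave 189 for the first and 105 for the last, and leaving out top cells 260 for the second and 523 for the third.

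Of the called ratios of named genes, 7 changed sign without the cells of high tubule share, 8 without top cells, 2 as a mean over cells, and 1 each at 5 C1q UMIs, at 10, without dividing cells and without the deepest cell of each library. In db/db control over db/m control Plac8 went to 1.78 at 5 and 1.84 at 10 C1q UMIs, 0.69 without the cells of high tubule share and 1.70 without top cells. H2-DMb2 went to 0.039, Klf4 to 0.51, Gpx4 to 0.13 and Khk to 0.055 without the cells of high tubule share, Klf4 to 0.091, Khk to 0.032 and Cxcl10 to 0.34 without top cells, Khk to 0.011 without the deepest cells, and Stmn1 to -1.17 without dividing cells and -0.015 without top cells. In db/db fructose over db/db control Clu went to 0.13 and Slc40a1 to -0.39 as a mean over cells, Thbs1 to -0.24, Slc40a1 to -0.50 and Hmox1 to 0.20 without top cells, and Sord to 0.026 and Cfb to 0.44 without the cells of high tubule share. The cause of these changes was not tested.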

Other observations

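Values of stress and growth factor genes of the C1q-positive cells that are not described above follow. Of 13 measured genes of endoplasmic reticulum folding, 4 were lower in the db/db control than in the db/m control and 0 higher, beside 17.9% and 16.7% of all genes, and 2 with the top cell of each gene left out. Among the 4 was Xbp1, the transcription factor of the unfolded protein response (193, 107 and 99.3 CPM in the db/m control, db/db control and db/db fructose cells). The other kept cells had 107, 52.3 and 75.1 CPM of Xbp1. Of 21 immediate-early genes, which tissue digestion can also induce, 4 were lower and 1 was higher in the db/db control, beside the same shares of all genes, with a sum of 33143, 25331 and 27278 CPM. Hspa1a, a heat shock protein, stood at 255, 136 and 122 CPM in the C1q-positive cells and at 59.9, 29.6 and 36.9 CPM in the other kept cells. Irf8, a transcription factor of the macrophage lineage, stood at 261, 170 and 213 CPM, with a log2 ratio of -0.62 (-1.17 to -0.06) in db/db control cells over db/m control cells. Hmox1, the enzyme that degrades haem, gave 10, 65 and 33 UMIs, with 30 of the 65 in 1 db/db control cell.

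Genes of dendritic cells were scarce. Only 2 of the 12 genes of that list were measured, and the list summed to 187, 175 and 196 CPM in the C1q-positive cells and to 183, 142 and 213 CPM in the other kept cells. Tgfb1, which encodes transforming growth factor beta 1, stood at 268, 166 and 256 CPM, with log2 ratios of -0.69 (-1.23 to -0.13) in db/db control cells over db/m control cells and 0.63 (0.21 to 1.05) for db/db fructose over db/db control. Col14a1, a fibril-associated collagen, gave 4, 44 and 30 UMIs in 3, 33 and 23 cells, against under 1 CPM in the other kept cells of each library. Some of the largest ratios rested on 1 cell: in the db/db control 169 of 191 Cryab and 23 of 30 Apela UMIs lay in the same cell.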
